A study of Mus musculus with 6 samples.

Results

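Transcripts of B cells and of the MHC class II pathway were followed in activated CD4 T cell cultures of miR-155 knockout (KO) mice and wild-type (WT) mice. The set held 9 genes, chosen by symbol: the B cell genes Cd79a, Cd79b and Ms4a1, the class II genes H2-Aa, H2-Ab1, H2-Eb1, Cd74 and H2-DMa, and Ciita. These were 9 of the 12393 genes with a probe set of their own on the array, and every one of their 14 probe sets was used. All 9 genes passed the filter on dim genes, which left 9295 genes in the comparison.

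The KO group was 3 arrays of cells from C57BL/6 mice that lack miR-155, and the WT group was 3 arrays of cells from C57BL/6 wild-type mice. Per the labels, spleen and lymph node cells were captured with CD4 magnetic beads and kept for 3 days with 1 µg/mL of CD3 and CD28 antibodies and 20 U/mL of interleukin 2, and the series description gives each array a mouse of its own. The labels name no cell type to which the knockout is restricted, and no mouse ages are given. The values are log2 signals made by the authors with RMA, and no detection calls were used, so no value is marked as above or below background.

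MHC class II molecules are pairs of alpha and beta chains that show peptides to CD4 T cells. B cells, dendritic cells and macrophages make them, whereas mouse T cells, unlike human ones, are known for making little class II even when activated. The coactivator CIITA switches the class II genes on without touching DNA itself: it sits on the factors RFX and NF-Y, which bind the X and Y boxes just upstream of these genes. CD79A and CD79B carry the signal of the B cell receptor into the cell, and MS4A1 is the B cell surface protein CD20.

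The missing microRNA and the upstream sequences that carry such boxes are shown first, because the class II genes measured below are known for sharing them. In mature miR-155, from chr16:84714143-84714165 (plus strand), capitals mark the seed, bases 2 to 8, which pairs with targets.
mmu-miR-155-5p: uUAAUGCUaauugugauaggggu
The next sequences are the 250 bases before the start of H2-Aa, at chr17:34287824-34288073 (minus strand), and of H2-Eb1, at chr17:34305617-34305866 (plus strand). Capitals mark GCAAC, letters from the core of the X box, and CTGATTGG, the letters of the Y box.
H2-Aa: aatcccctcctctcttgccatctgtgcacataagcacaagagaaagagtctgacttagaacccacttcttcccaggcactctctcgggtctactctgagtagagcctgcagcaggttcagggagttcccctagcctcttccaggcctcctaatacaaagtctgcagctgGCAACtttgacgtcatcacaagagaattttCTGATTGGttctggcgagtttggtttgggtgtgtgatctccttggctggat
H2-Eb1: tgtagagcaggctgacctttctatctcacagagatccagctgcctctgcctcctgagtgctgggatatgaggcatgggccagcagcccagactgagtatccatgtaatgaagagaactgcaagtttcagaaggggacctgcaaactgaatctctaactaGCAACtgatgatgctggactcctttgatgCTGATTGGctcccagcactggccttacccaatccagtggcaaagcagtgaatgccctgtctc
For comparison, the 250 bases before Cd79a, at chr7:24897247-24897496 (plus strand), are shown with capitals on CNCAAGGGA, a form of the site of EBF1, an early B cell transcription factor known to act at this promoter.
Cd79a: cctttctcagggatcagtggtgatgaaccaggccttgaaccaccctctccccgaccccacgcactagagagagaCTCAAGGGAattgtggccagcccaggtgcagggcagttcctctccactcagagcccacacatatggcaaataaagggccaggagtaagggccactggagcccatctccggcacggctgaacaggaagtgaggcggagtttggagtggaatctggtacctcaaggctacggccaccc

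All sequences are RefSeq's, in build GRCm38.p6, whose promoter table held 5 usable promoters of 4 of the 9 genes. Promoters of the other genes were not in that table or were left out. GCAAC and the Y box letters lay 25 bases apart before H2-Aa and 24 bases apart before H2-Eb1. On either strand, the pair 20 to 30 bases apart was found in 0.0609% of all 32851 promoters, the Y box letters in 3.83%, GCAAC alone in 29.9% and the EBF1 letters in 1.02%. The letters and the spacing were chosen with the H2-Aa and H2-Eb1 sequences in view, the EBF1 letters with that of Cd79a, and a match is a description, not a site. Both H2-DMa promoters lacked the Y box letters and the pair, and 1 of them held GCAAC.

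The arrays themselves were examined before the genes. Mir155hg, the host transcript of miR-155, measured 3.51, 3.89 and 4.45 on the KO arrays against 7.69, 6.59 and 8.21 on the WT arrays (log2), so each array lay on the side of its label. The Y-linked gene Kdm5d measured 3.41, 7.77 and 7.33 on the KO arrays against 2.99, 7.80 and 7.04 on the WT arrays, and Xist, the transcript of the inactive X chromosome, measured 13.35, 5.94 and 12.59 against 13.08, 5.66 and 12.64. Both replicate 3 arrays thus carried Xist and a Y-linked transcript together, which 1 mouse per array would not give, and results are also given without that pair. Xist was picked with its values in view, outside the naming rule. A principal component analysis of the 9295 genes put 61.9% of the variance on its first component, with KO replicates 1 and 3 and WT replicate 3 on its low side.

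In none of the 9 genes was a difference between KO and WT found beyond the spread of the replicates. By limma, with Benjamini-Hochberg adjustment over the 9295 genes, 0 of 9 passed an adjusted p of 0.05, where the share over all genes was 0%. Mir155hg itself, with a difference of -3.55, did not pass (limma adjusted p = 0.545, the smallest of all genes). The adjusted count therefore cannot show that the 9 genes were alike in KO and WT. At an unadjusted p under 0.05 the counts were 0 of 9, against 7.43% of all genes (691 genes). The KO and WT arrays overlapped in all 9 genes, whereas 12.8% of all genes had groups that did not overlap. KO was above WT in the means of 5 of the 9 genes and below it in 4, and the median KO minus WT was 0.08 on the log2 scale, against -0.00359 over all genes. The sign of that median rested on single arrays: it was -0.18 without WT replicate 3, -0.018 without KO replicate 1 and -0.04 without KO replicate 2, and 0.19 without KO replicate 3. With the test run per gene without moderation the counts were again 0 adjusted and 0 unadjusted of the 9.

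**Figure D1:**
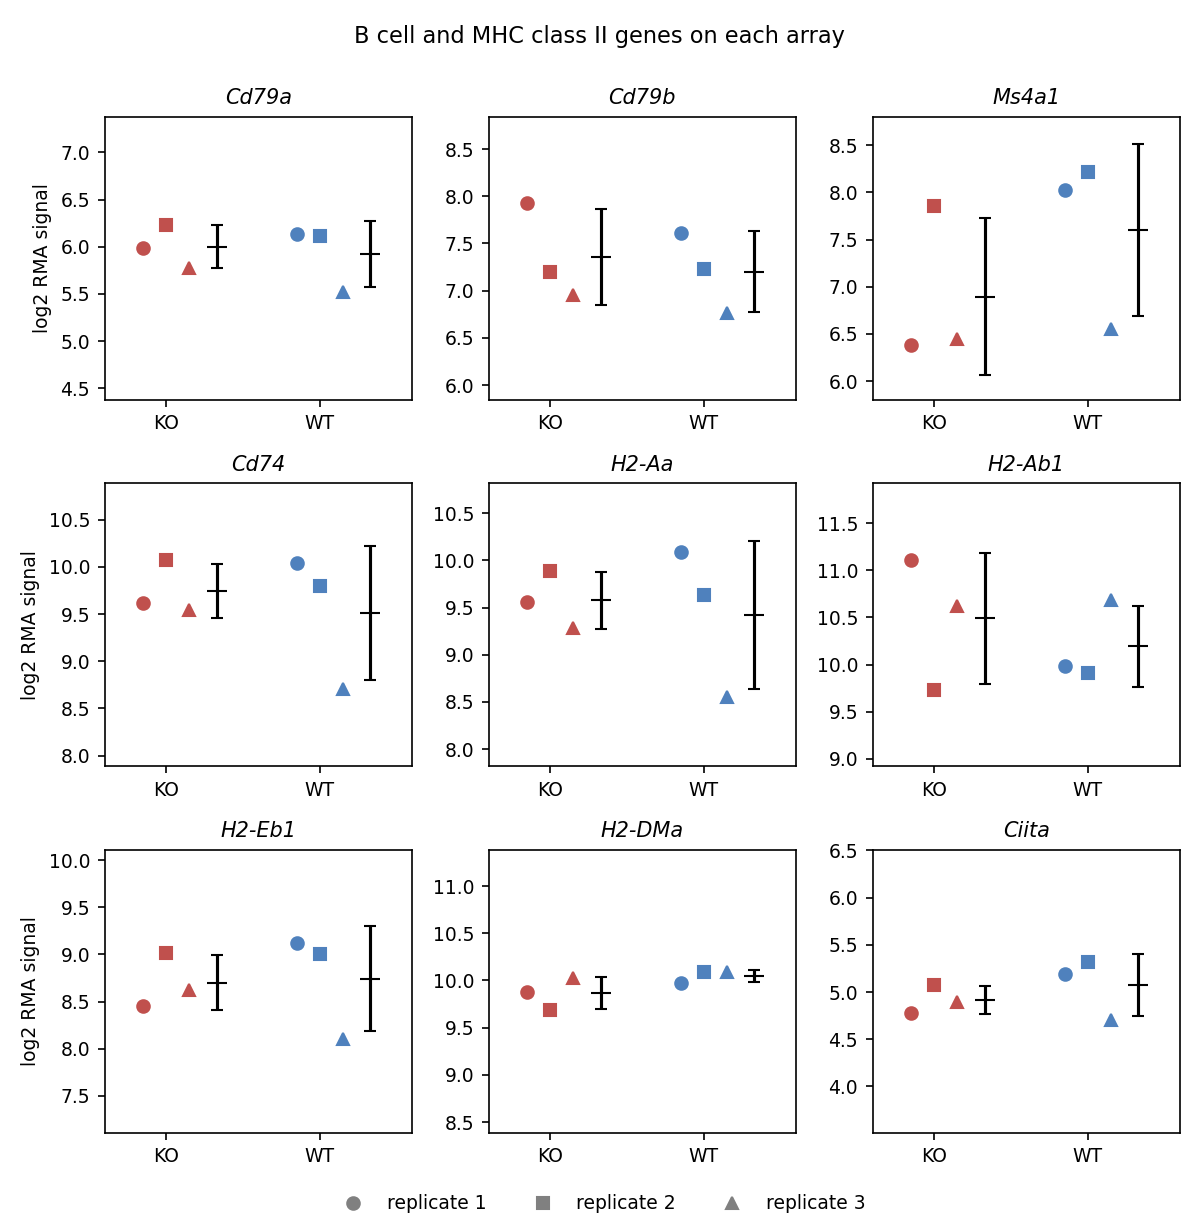
Log2 RMA signal of the 9 genes (1 probe set per gene) on 3 KO arrays (red, left) and 3 WT arrays (blue, right), with the marker shape giving the replicate number and the black bar the mean ± SD. In every panel the groups overlap, and WT replicate 3 is the lowest array in 6 of 9 genes. Every panel spans the same number of log2 units.

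Of the B cell genes, Ms4a1 varied most. It measured 6.39, 7.85 and 6.45 on the KO arrays against 8.02, 8.22 and 6.55 on the WT arrays (log2). KO replicates 1 and 3 and WT replicate 3 were low and the other arrays high, so each genotype held both levels. The means were 6.90 ± 0.83 in KO and 7.60 ± 0.91 in WT (SD, n = 3 each), a KO minus WT difference of -0.70 ± 0.56 (SE), with a 95% confidence interval of -2.05 to 0.65 and a limma adjusted p of 0.679. Its dimmer probe set gave 4.64, 6.41 and 4.65 in KO against 6.31, 6.77 and 4.68 in WT, the same split of the arrays, and a difference of -0.69. As a ratio of KO over WT, the interval of the brighter probe set runs from 0.242 to 1.56. Without WT replicate 3 the difference was -1.22 (limma unadjusted p = 0.041, adjusted p = 0.345), and without both replicate 3 arrays it was -0.9999 (adjusted p = 0.689). Without WT replicate 3, Ms4a1 was the 1 member at an unadjusted p under 0.05, and 1338 of all 9295 genes were under it too.

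Cd79a, the alpha chain of the receptor's signalling pair, measured 5.99, 6.24 and 5.78 in KO against 6.13, 6.11 and 5.52 in WT. The groups overlapped, with WT replicate 3 lowest and KO replicate 2 highest, and the difference was 0.08 ± 0.21 (SE) with a limma adjusted p of 0.908. Without WT replicate 3 it was -0.12, and without both replicate 3 arrays -0.011. Its partner Cd79b measured 7.93, 7.19 and 6.95 in KO against 7.62, 7.23 and 6.76 in WT. In both genotypes replicate 1 was highest and replicate 3 lowest, and the difference was 0.15 ± 0.31 (SE) with a limma adjusted p of 0.871. The 95% intervals were -0.43 to 0.58 for Cd79a and -0.60 to 0.91 for Cd79b. Although the 3 genes mark the same cells, their arrays did not follow 1 order: KO replicate 1 was the highest array for Cd79b and the lowest for Ms4a1.

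Of the class II chains, H2-Aa, the alpha chain of the I-A molecule, measured 9.56, 9.89 and 9.28 in KO against 10.09, 9.63 and 8.55 in WT (log2). H2-Eb1, the beta chain of I-E, measured 8.45, 9.02 and 8.63 in KO against 9.12, 9.005 and 8.10 in WT. In both genes WT replicate 3 was the lowest array and WT replicate 1 the highest, so the WT arrays spanned the KO arrays. The differences were 0.15 ± 0.39 (SE) for H2-Aa, with a 95% interval of -0.79 to 1.09, and -0.04 ± 0.30 (SE) for H2-Eb1, with -0.76 to 0.67 (limma adjusted p = 0.902 and 0.970). The second H2-Aa probe set differed by 0.08. Without WT replicate 3, H2-Aa differed by -0.28 and H2-Eb1 by -0.36, neither past the test (limma adjusted p = 0.581 and 0.415), and without both replicate 3 arrays by -0.14 and -0.33.

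Cd74, the invariant chain that fills the groove of new class II molecules, measured 9.62, 10.07 and 9.54 in KO against 10.04, 9.80 and 8.71 in WT. WT replicate 3 was again the lowest array, below all 3 KO arrays. The means were 9.74 ± 0.28 in KO and 9.52 ± 0.71 in WT (SD, n = 3 each), a difference of 0.23 ± 0.36 (SE) with a 95% interval of -0.63 to 1.08 and a limma adjusted p of 0.831. Without WT replicate 3 it was -0.18, and without both replicate 3 arrays -0.075.

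H2-Ab1, the beta chain that pairs with H2-Aa and its neighbour in RefSeq, ran against H2-Aa, H2-Eb1 and Cd74. Its brightest probe set measured 11.11, 9.73 and 10.62 in KO against 9.98, 9.91 and 10.69 in WT, with KO replicates 1 and 3 and WT replicate 3 high. Both other probe sets split the arrays the same way, with 10.46, 9.16 and 9.97 in KO against 9.12, 9.38 and 10.14 in WT for 1 of them, and 9.22, 7.99 and 8.89 in KO against 8.25, 8.30 and 8.999 in WT for the other. The KO minus WT differences of the 3 probe sets were 0.29, 0.32 and 0.18, none past the test, with a 95% interval of -0.62 to 1.21 for the brightest (limma adjusted p = 0.795). Without KO replicate 1 that difference was -0.018, without KO replicate 2 it was 0.67, and without both replicate 3 arrays 0.48.

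Set against its own mean over the 6 arrays, H2-Ab1 stood at 0.77, -0.61 and 0.28 on the KO arrays and at -0.36, -0.43 and 0.35 on the WT arrays. The mean of Cd74, H2-Aa and H2-Eb1, centred likewise, stood at -0.07, 0.38 and -0.13 on the KO arrays and at 0.46, 0.20 and -0.83 on the WT arrays. The sign was opposite on every array. Over the 6 arrays Pearson's r of H2-Ab1 was -0.58 with H2-Aa, -0.62 with Cd74 and -0.83 with H2-Eb1, whereas H2-Aa, Cd74 and H2-Eb1 had r of 0.91 to 0.98 with each other and the H2-Ab1 probe sets r of 0.98 to 0.99 among themselves. H2-DMa had r of 0.26 with H2-Ab1, and of -0.54 with H2-Aa, -0.57 with Cd74 and -0.34 with H2-Eb1. These are descriptions over 6 arrays that share 1 normalization, and the trio of Cd74, H2-Aa and H2-Eb1 was put together after its values were seen. Probe sets whose names end in _x_at or _s_at, among them 2 of H2-Ab1 and both of H2-Aa, can take up transcripts of related genes, and whether they did was not tested.

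**Figure D2:**
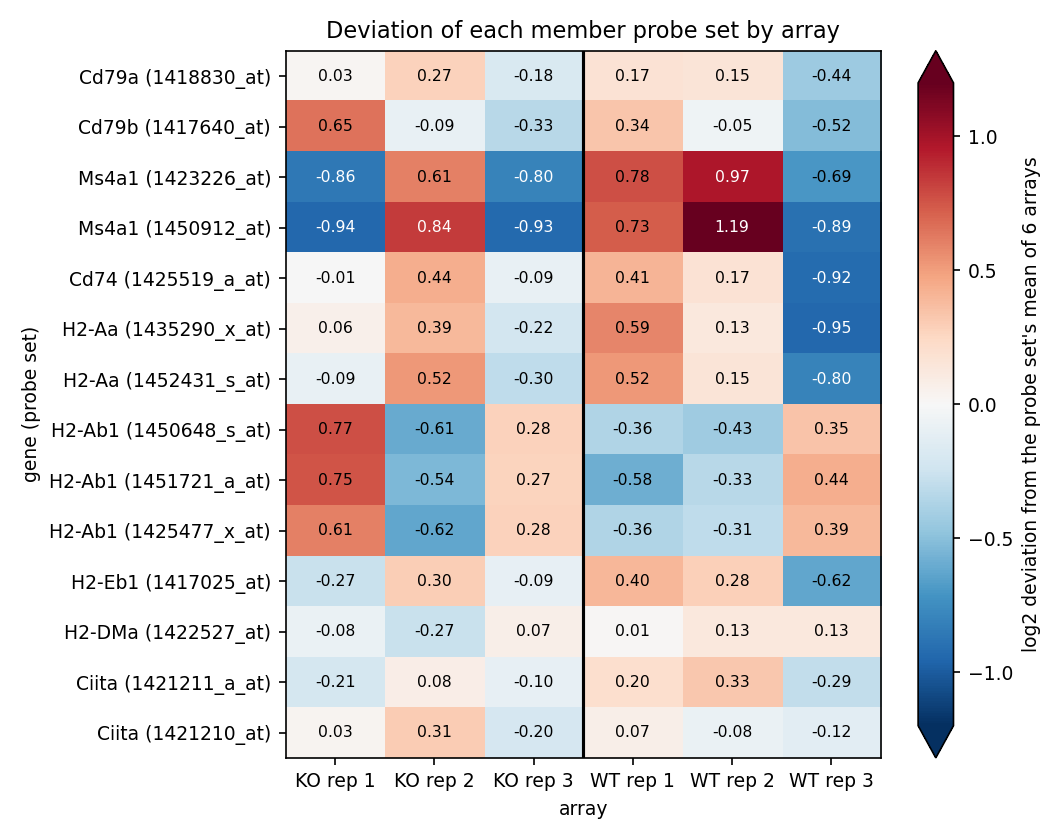
Log2 deviation of each of the 14 probe sets (rows) from its own mean over the 6 arrays (columns, KO left of the line and WT right of it), in red where above and blue where below. The 3 H2-Ab1 rows have the opposite colours to the H2-Aa, Cd74 and H2-Eb1 rows, apart from values near 0 on KO replicate 1, and both Ms4a1 rows split the arrays 3 and 3 within and across genotypes.

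H2-DMa, a chain of the molecule that swaps the invariant chain fragment for peptide, was the steadiest of the set. It measured 9.88, 9.69 and 10.02 in KO against 9.97, 10.09 and 10.09 in WT. The groups overlapped only through KO replicate 3, and the difference was -0.18 ± 0.13 (SE) with a 95% interval of -0.49 to 0.12 (limma adjusted p = 0.650, the smallest of the 9 genes, and an exact permutation p of 0.2, where 3 against 3 arrays cannot go below 0.1). Its spread within genotypes, 0.13 log2 units, was at percentile 22.6 of all genes tested, against percentile 98.6 for Ms4a1, 94.6 for H2-Aa, 94.1 for H2-Ab1 and 92.7 for Cd74.

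Ciita was close to the lower end of the genes tested. Its brighter probe set measured 4.78, 5.07 and 4.89 in KO against 5.20, 5.32 and 4.70 in WT, near 4.72, the mean of the dimmest gene tested. KO values lay within the span of the WT values, and the difference was -0.16 ± 0.19 (SE) with a 95% interval of -0.61 to 0.30 and a limma adjusted p of 0.776. The other Ciita probe set differed by 0.092, the opposite sign, and its mean over the arrays, 4.54, lay below the filter. Differences of dim genes are compressed in RMA values.

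**Figure D3:**
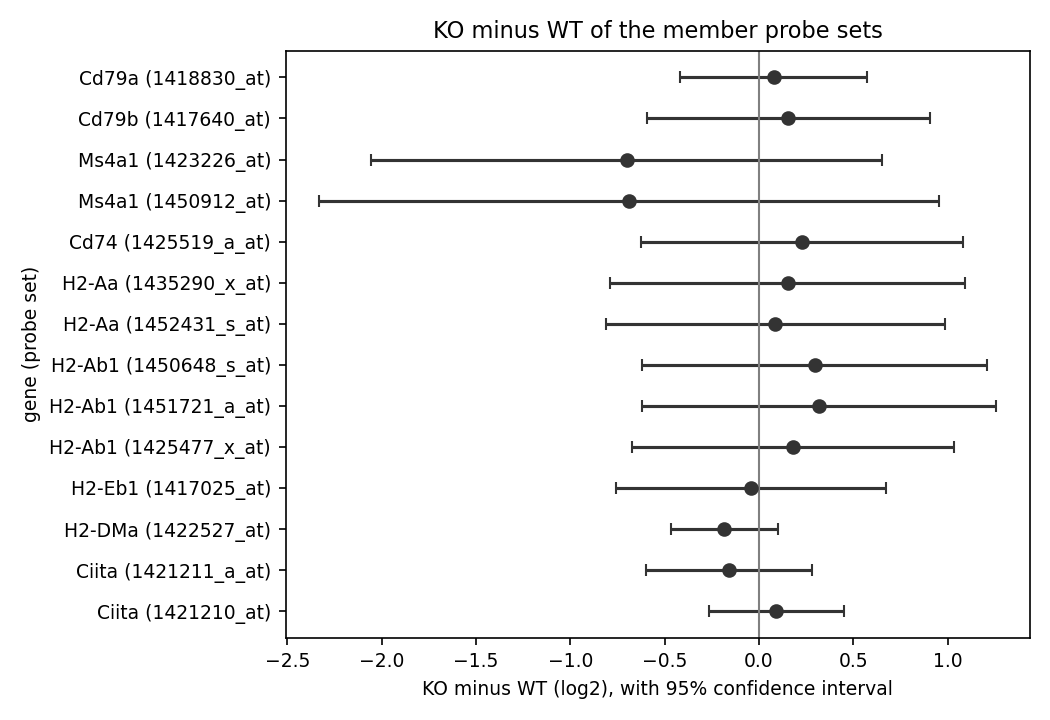
KO minus WT difference (log2, horizontal) of the 14 probe sets with 95% confidence intervals from limma fitted over all probe sets without a filter. All 14 intervals include 0, those of Ms4a1 are the widest and those of H2-DMa and the dimmer Ciita probe set the narrowest.

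Fitted over all 22626 probe sets, 0 of the 14 passed an adjusted p of 0.05 (0% of all), 0 passed an unadjusted p of 0.05 (6.55% of all), and in 0 did the groups not overlap (11.7% of all). In bulk RNA, fewer cells of a type and less RNA per cell cannot be told apart, so these values do not say which of them an array with less Cd74 had.

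WT replicate 3 was the lowest array for Cd79a, Cd79b, Cd74, H2-Aa, H2-Eb1 and Ciita, or 6 of the 9 genes, and it was the lowest array for 8.94% of all genes. It was also lowest in 10 of 19 other B cell genes and 2 of 11 other class II pathway genes. Among dendritic cell markers it was lowest in 1 of 9, and among macrophage markers in 1 of 8. The same array was lowest in 3 of 7 CD8 T and NK cell markers and in 4 of 13 class I pathway genes. For class II factors and Ciita regulators the count was 3 of 20, and for CD4 T cell markers 1 of 14. The Pearson r with the array scores of the first principal component was 0.92 for Ms4a1, 0.84 for Ciita, 0.74 for H2-Eb1, -0.93 for H2-Ab1, and between -0.21 and 0.48 for the remaining 5 genes, against a median absolute r of 0.66 over all genes. The component was computed with these genes among the 9295, and its part in their spread was not tested.

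The other B cell genes gave 0 of 19 past the adjusted test, 2 at an unadjusted p under 0.05 (7.43% of all genes) and 4 whose groups did not overlap (12.8% of all genes), with 13 higher and 6 lower in KO. Their median was 0.09, and -0.14 without WT replicate 3. Cd24a, a surface glycoprotein gene that many blood cells express, measured 11.57, 10.59 and 10.54 in KO against 9.68, 9.41 and 10.35 in WT, a difference of 1.09 ± 0.35 (SE, limma adjusted p = 0.631). All KO arrays lay above all WT arrays. Tnfrsf13c, the receptor gene for the B cell survival factor BAFF, measured 7.15, 7.04 and 7.19 in KO against 7.59, 7.53 and 7.31 in WT, a difference of -0.35 ± 0.12 (SE, limma adjusted p = 0.631), with all KO arrays below all WT arrays. Cd22, an inhibitory B cell receptor, measured 7.07, 7.28 and 6.92 in KO against 7.37, 7.39 and 6.67 in WT, the order in which WT replicate 3 is lowest. Pax5, the B cell identity factor, lay below the filter at 4.45, 4.46 and 4.51 in KO against 4.37, 4.70 and 4.64 in WT. Of this list 23 genes were on the array by symbol. The list's mean, relative to all 6 arrays, ranged from -0.09 to 0.13 in KO and from -0.32 to 0.20 in WT.

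In the rest of the class II pathway 0 of 11 genes passed, 8 being higher and 3 lower in KO, with a median of 0.06. The median was 0.22 without WT replicate 1, 0.18 without KO replicate 3, 0.02 without KO replicate 2, and 0.37 with all probe sets of a gene averaged. Lgmn, the endosomal protease legumain, measured 8.48, 6.87 and 7.55 in KO against 5.80, 5.74 and 6.92 in WT, a difference of 1.48 ± 0.48 (SE, limma adjusted p = 0.631). The groups met only at KO replicate 2 and WT replicate 3. Ctsb, a further lysosomal protease gene, differed by 0.36. Among the class II transcription factors and the regulators of Ciita 0 of 20 passed and 4 had an unadjusted p under 0.05, against 7.43% of all genes. Prdm1, whose product Blimp-1 is known to silence Ciita in plasma cells, measured 8.68, 7.51 and 8.03 in KO against 6.15, 6.48 and 7.27 in WT. All KO arrays lay above all WT arrays, by 1.44 ± 0.38 (SE) in the means (limma adjusted p = 0.631). Ifng, the cytokine gene whose product induces Ciita in many cells, measured 6.32, 7.35 and 6.87 in KO against 8.48, 8.32 and 7.23 in WT, a difference of -1.17 ± 0.40 (SE, limma adjusted p = 0.631), with KO replicate 2 above WT replicate 3. Ifngr1 and Jak2, the other genes of this list at an unadjusted p under 0.05, were higher in KO. They differed by 0.89 and 0.38 (limma adjusted p = 0.631 for both). The factor genes Rfx5, Rfxap, Rfxank, Nfya, Nfyb and Nfyc differed by between -0.17 and 0.20. These 6 genes, Ifngr1 and Jak2 were picked with their values in view, outside the naming rule.

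**Figure D4:**
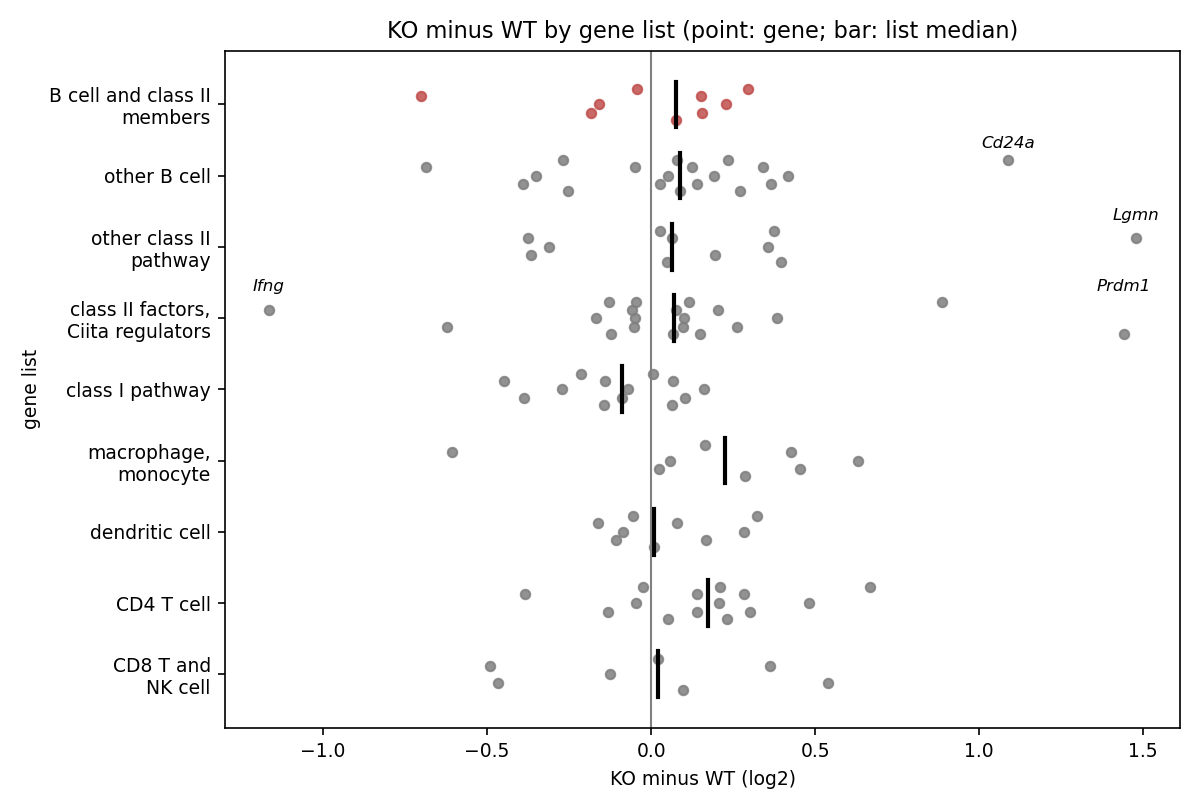
KO minus WT difference (log2, horizontal) of each tested gene (points) in the B cell and class II set (red) and in 8 other gene lists (grey), with the list median as a black bar and genes beyond 0.95 named. The median of the 9 genes is 0.08 and those of the other lists lie between -0.09 and 0.23, and no gene shown passed the adjusted test.

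Markers of the cell types a CD4 bead capture could hold were set beside these values. Macrophage and monocyte markers had 7 of 8 tested genes higher in KO and 0 past the test, with a median of 0.23, and 9 of 17 on the array lay below the filter, among them Cd14, Itgam and Lyz2. Over all 17 genes, without the filter, the median was 0.081. Of this list Ctsd differed by 0.45, Fcgr3 by 0.43, Cd68 by 0.63, Csf1r by 0.16 and Mpeg1, the 1 gene lower in KO, by -0.61. Dendritic cell markers had a median of 0.01 with 0 of 9 past the test, Flt3 at 0.17 and Ccl17 at -0.16, and Itgax lay below the filter. The mean of the macrophage list, relative to all 6 arrays, ranged from -0.0047 to 0.17 in KO and from -0.25 to 0.02 in WT, and that of the dendritic list from -0.20 to 0.26 in KO and from -0.25 to 0.24 in WT. CD4 T cell markers had 10 of 14 genes higher and 4 lower in KO and 0 past the test, with a median of 0.17 that was 0.019 without WT replicate 1. The 4 lower were Trat1 at -0.38, Icos at -0.13, Lat at -0.05 and Cd5 at -0.02, which with Mpeg1 were picked with their values in view. The others included Cd4 at 0.05, Cd3e at 0.21, Cd28 at 0.67 and Zbtb7b at 0.48. CD8 T and NK cell markers had a median of 0.02 and 0 of 7 past the test, with Runx3 at 0.54 and Crtam at -0.49. MHC class I pathway genes, which T cells make themselves, had a median of -0.09 and 0 of 13 past the test, with the immunoproteasome subunit genes Psmb9 at -0.39 and Psmb8 at -0.27. With 1 array left out in turn, the medians ranged from 0.15 to 0.32 for macrophage markers, from 0.0020 to 0.14 for dendritic cell markers, from -0.02 (without WT replicate 3) to 0.19 (without WT replicate 2) for CD8 T and NK cell markers, and from -0.22 to 0.0016 for class I genes, the ends being those without WT replicate 3 and KO replicate 1. The part of other cells in the member values was not tested.

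The genes most like the members were sought among the other tested genes by Pearson's r over the 6 arrays, as a description. For the mean of the 3 B cell genes they were Fli1, Cdc73, Camsap1, Ice1 and Tbcd, with r of 0.98 to 0.99. For the mean of the 5 class II genes they were 1700017B05Rik, Ly86, Lamtor5, Igkv8-30 and Gfi1b, with r of 0.97 to 0.99. For the mean of Cd74, H2-Aa and H2-Eb1 alone they were Huwe1, Ppp4r3a, Itgb1, Il12a and Sirt1, with r of 0.979 to 0.996. Neither Ly86 nor Igkv8-30 was among those, though Ly86 had r of 0.94 with that mean. Over the other B cell genes that r ranged from -0.64 for Tnfrsf13b to 0.95 for Cd22. The members were left out of this search. With Cd74, H2-Aa and H2-Eb1, r was 0.96, 0.95 and 0.89 for Cd79a. It was 0.68, 0.68 and 0.87 for Ms4a1, and 0.55, 0.65 and 0.32 for Cd79b. Of the genes most like the mean of the 5 class II genes, Ly86 encodes MD-1, a partner of the surface protein CD180. Igkv8-30 is an immunoglobulin kappa variable segment. Ly86 measured 7.70, 7.67 and 7.22 in KO against 7.85, 7.58 and 6.46 in WT, and Igkv8-30 measured 9.22, 9.37 and 8.74 in KO against 9.70, 9.20 and 7.91 in WT. In both WT replicate 3 was the lowest array and WT replicate 1 the highest, as for H2-Aa and H2-Eb1.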

How the data were processed

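The deposited signals are on a log2 scale; the submitters' processing notes name RMA and affy as the authors' tools, without versions. The table held 22690 probe sets, 64 of them controls, on 6 arrays whose medians lay between 6.45 and 6.49. Probe sets were named through GEO's platform annotation (20380 with 1 gene, 691 with several, 1555 with none), and 12369 of the 12393 genes were found by number in RefSeq. Each gene was represented by its brightest probe set on average, and the dimmest 25% of genes were left out. The comparison used limma (version 3.58.1, R version 4.3.3) with lmFit, eBayes, two-sided p-values and Benjamini-Hochberg adjustment; differences are KO minus WT. The number of arrays limits the precision, and p-values measure the spread between these arrays. Named were every member probe set, preset markers, up to 4 genes per list past the test or else the 2 with the smallest p, and the 5 most alike genes. Members and lists were chosen with earlier results of these data known. Alternatives were the replicate block, arrays left out, other normalizations, filters, probe set rules and variance models, and array weights (statmod 1.5.0). The code was tested on simulated data.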

Additional observations from a re-analysis of the deposited data

How the results depend on the processing

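No member passed the adjusted test under any alternative run except array weights estimated by REML, which gave 3 members (Ms4a1 at -1.52, H2-Ab1 at 0.59 and Ciita at -0.36) and 3575 of 9295 genes. Those weights were 5.55 for KO replicate 3 and 5.04 for WT replicate 2 against 0.27 to 0.58 for the other arrays, so each mean rested mainly on 1 array. Gene by gene weights, added after the data were seen, gave 0 members and 0 genes. The labels share replicate numbers but do not say that same-numbered KO and WT arrays belong together, so the numbers were not taken as pairs. Deviations of same-numbered arrays correlated at -0.04, 0.64 and 0.40, and those of differently numbered arrays at between -0.69 and 0.39. These correlations do not settle whether the numbers are pairs. The Xist and Y-linked transcripts were alike in same-numbered KO and WT arrays. KO lay below WT in all 3 same-numbered comparisons of Ms4a1 and H2-DMa, whereas the sign was mixed for every other member. Ms4a1 and H2-DMa were picked here with their values in view. The share of all genes with such a pattern was not counted, so it is no result about the members. With a replicate block 0 members and 0 genes passed, and 918 genes had an unadjusted p under 0.05 against 691. With the block Ms4a1 had a limma adjusted p of 0.478 and H2-DMa of 0.531. The SE of every member was smaller with the block, for Cd79b 0.12 against 0.31 and for Ms4a1 0.34 against 0.56.

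Differences of small size changed sign. Without both replicate 3 arrays Cd79a was at -0.011, Cd74 at -0.075 and H2-Aa at -0.14. With REML weights Cd79a was at -0.25, Cd79b at -0.22, Cd74 at -0.16 and H2-Aa at -0.25, and with gene by gene weights Cd79a was at -0.12, Cd79b at -0.13, Cd74 at -0.015 and H2-Aa at -0.11. The second Ciita probe set was at 0.092. With 1 array left out in turn Cd79a ranged from -0.12 to 0.19, Cd79b from -0.13 to 0.36, Cd74 from -0.18 to 0.49, H2-Aa from -0.28 to 0.48, H2-Ab1 from -0.018 to 0.67 and H2-Eb1 from -0.36 to 0.15, while Ms4a1 stayed between -1.22 and -0.39, H2-DMa between -0.26 and -0.10 and Ciita between -0.34 and -0.03. Genes at an unadjusted p under 0.05 numbered 276 when WT replicate 1 was left out and 1542 when KO replicate 2 was. Of 144 list medians under the alternatives 131 stayed within 1 SD of the arrays' list means; the median of the 9 genes was -0.25 with REML weights and -0.13 with gene by gene weights.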
